A study of Homo sapiens with 7 samples.

Results

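Of 19336 Pol II peaks on chromosomes 1 to 22, 4600 (23.8%, 95% Wilson interval 23.2% to 24.4%) were overlapped by an SPT5 peak and by no peak of TRIM28, OGA or O-GlcNAc. These SPT5-only Pol II peaks were selected on measured overlaps of at least 1 bp between 5 deposited peak lists, so the presence of SPT5 and the absence of the other 3 targets describe the choice and are no finding. The lists are ChIP-seq peaks (sites where DNA fragments bound by the target pile up) of BJAB, an established B-cell line that the labels trace to Burkitt's lymphoma and whose passage they give only as multiple. All cells were fixed in 1% formaldehyde for 5 min, with no treatment or genetic change named, and 10 µg of antibody was used per precipitation. The antibodies were 8WG16 for Pol II, SPT5 for the DSIF subunit, TRIM28 (TIF1b), NCOAT for the enzyme OGA and RL2 for the O-GlcNAc mark. There was 1 library per target, and the series' 2 libraries with mouse or rabbit IgG were not used here.

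Pol II that has begun transcription commonly stops a short way into the gene, and this promoter-proximal pause is a control point of many genes. SPT5 is the large subunit of DSIF, which helps to hold the paused polymerase and, once phosphorylated by P-TEFb, travels with it as an elongation factor. TRIM28 is a chromatin corepressor that has also been described at paused genes. O-GlcNAc is a single sugar placed on nuclear proteins, the repeats of the Pol II tail among them, by the transferase OGT and removed by OGA. 8WG16 was raised to those repeats and prefers the form without phosphate, which bears on which Pol II it sees.

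With 1 library per target there is no replicate, no test between conditions and no p-value here. Intervals cover counting error over peaks only, and neighbouring peaks are not independent. Read depth is unknown, so a site without the target and a site that its library was too shallow to show cannot be told apart. This bears on the selection, since OGA had 2503 peaks on chromosomes 1 to 22 and O-GlcNAc 8988, against 43998 for TRIM28 and 54885 for SPT5. Height below is the authors' fold enrichment of a peak over an unstated background, compared only within a list. No genome of the build of the files (hg19) was used, so peaks are given by position, without genes or sequence.

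SPT5-only peaks were a large class of Pol II peaks. SPT5 lay at 18462 Pol II peaks, of which they made up 24.9%. Of the 5287 Pol II peaks without TRIM28, OGA and O-GlcNAc, 87.0% had SPT5, below the 95.5% of all Pol II peaks. The other 687 had none of the 4 other targets. Pol II peaks with SPT5 and TRIM28 but no OGA or O-GlcNAc numbered 5501 (28.4% of all), those with SPT5, TRIM28 and O-GlcNAc but no OGA 4910 (25.4%), and those with SPT5 and O-GlcNAc but no TRIM28 or OGA 2282 (11.8%). These 3 classes and the 687 peaks are the comparisons used below.

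SPT5-only peaks were by median the lowest and narrowest of these 4 classes with SPT5. Their median Pol II fold enrichment was 3.54 (95% interval of the median 3.49 to 3.59, quartiles 2.87 and 4.89). The medians were 4.46 with SPT5 and TRIM28, 5.49 with SPT5 and O-GlcNAc, and 6.89 with all 3. Pol II peaks with no other target had a median of 3.56 (3.47 to 3.65), so their interval overlapped that of the SPT5-only peaks. The median width of SPT5-only peaks was 363 bp, between 270 bp for peaks with no other target and 474 to 696 bp for the other classes. A narrow peak offers less room for any overlap, that with SPT5 included. Of the narrowest decile of Pol II peaks 44.9% were SPT5 only, and of the widest decile 9.52%. By height the shares were similar, 45.5% in the lowest decile and 11.1% in the highest. Whether width bears on the selection apart from height was not tested.

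**Figure D1:**
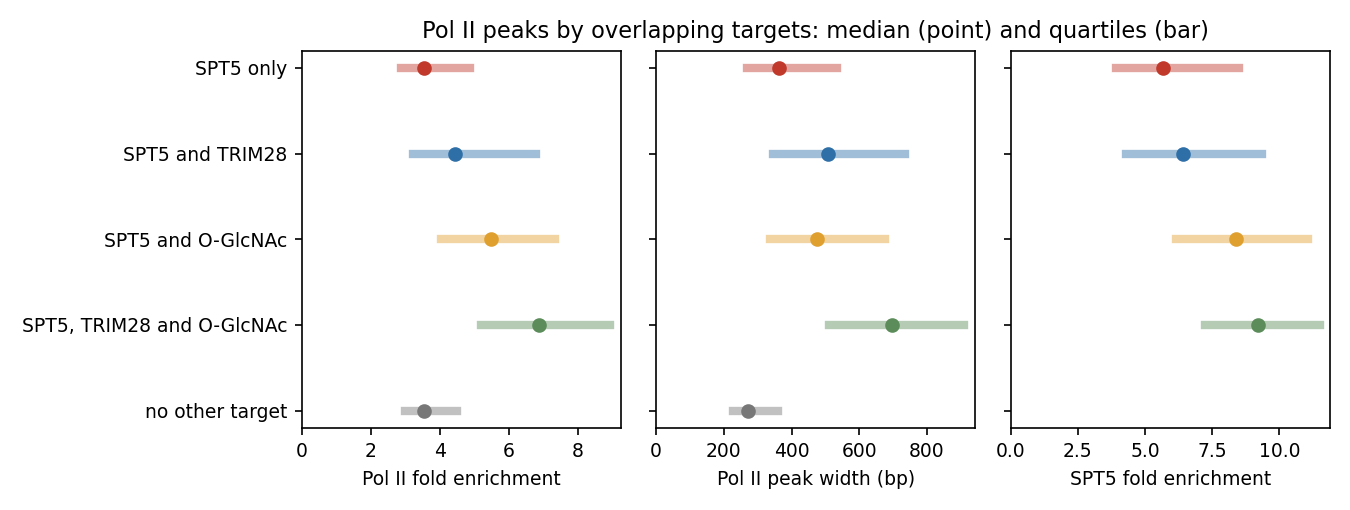
Median (point) and quartiles (bar) of Pol II fold enrichment, Pol II peak width in bp and fold enrichment of the overlapping SPT5 peak for 5 classes of Pol II peaks, 1 library per target. SPT5-only peaks have the lowest medians of the 4 classes with SPT5 in all 3 panels (3.54, 363 bp and 5.66), and no SPT5 value exists for peaks with no other target.

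The share of SPT5-only peaks was lower at greater Pol II height over most of the list and rose again among its very highest peaks. By deciles of the Pol II list from the lowest to the highest fold enrichment, the shares were 45.5%, 41.8%, 37.5%, 30.9%, 23.2%, 17.5%, 11.7%, 9.73%, 9.05% and 11.1%. The last 3 values differed little, with 95% Wilson intervals of 8.48% to 11.1%, 7.85% to 10.4% and 9.80% to 12.6%. Within the highest decile the share was uneven. SPT5-only peaks were 118 of the 1000 highest Pol II peaks (11.8%, 9.95% to 13.9%), 74 of the 500 highest (14.8%, 12.0% to 18.2%), 30 of the 100 highest (30.0%, 21.9% to 39.6%) and 8 of the 20 highest (40.0%, 21.9% to 61.3%). These sets are nested, so their intervals cannot be compared as those of separate groups. The interval of the 100 highest lay above that of the ninth decile (7.85% to 10.4%), which holds none of them. The share over all Pol II peaks, 23.8%, lay inside the intervals of both the 100 and the 20 highest. Of the 30 SPT5-only peaks among the 100 highest, 29 were the only Pol II peak on their SPT5 peak.

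**Figure D2:**
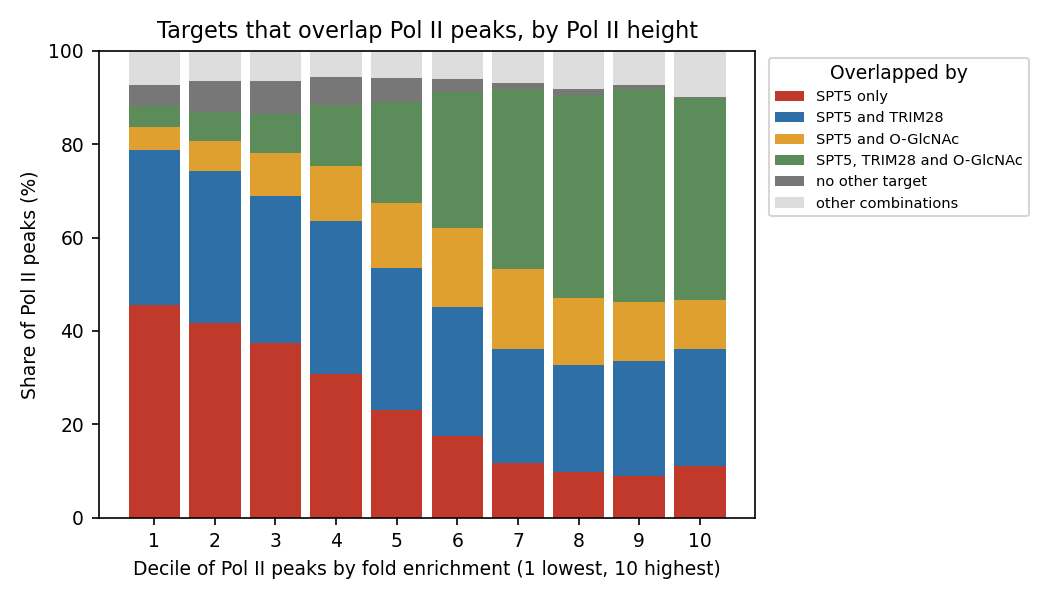
Share of Pol II peaks (%) in each class of overlapping targets, for deciles of the Pol II list by fold enrichment, 1933 or 1934 peaks each. The SPT5-only share is 45.5% in the lowest decile, 9.05% in the ninth and 11.1% in the highest, while peaks with SPT5, TRIM28 and O-GlcNAc go from 4.50% to 43.3%.

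The single highest Pol II peak on chromosomes 1 to 22 was SPT5 only. It lay at chr6:111408288-111409098 (hg19) with a Pol II fold enrichment of 27.2, on an SPT5 peak of 18.6 whose summit was 32 bp away, and the nearest TRIM28, OGA or O-GlcNAc peak was 103 kb away. The second highest, at chr1:144310765-144311994, had a Pol II fold enrichment of 25.9 and an SPT5 fold enrichment of 15.6, again with summits 32 bp apart and 208 kb from the 3 absent targets. Both sites thus had high SPT5 and none of the other targets within 100 kb. Ranks 5, 6 and 15 of the Pol II list followed. They lay at chr1:182360558-182361323 (22.9), chr8:27699721-27700129 (22.8) and chr6:159502923-159503611 (20.6). Their SPT5 fold enrichments were 10.3, 19.8 and 3.61, so the last of them had an SPT5 peak of no great height although its Pol II peak was among the 20 highest. These 3 sites had a TRIM28 or O-GlcNAc peak nearer, at 13.4, 4.13 and 7.25 kb.

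SPT5 itself was lower at SPT5-only peaks than in the classes with further targets over the deposited lists, though not at every Pol II height. The order depended on list length: with only the strongest SPT5 and TRIM28 peaks kept, as many as O-GlcNAc had, SPT5-only peaks were higher by 1.06 than peaks with SPT5 and TRIM28 and by 0.61 than those with all 3, and differed by -0.045 from those with SPT5 and O-GlcNAc. Where several SPT5 peaks overlapped a Pol II peak, the highest was taken. The median SPT5 fold enrichment was 5.66 (5.53 to 5.82) at SPT5-only peaks, 6.42 with TRIM28, 8.37 with O-GlcNAc and 9.19 with both. Pol II height differs between these classes, so the medians were also taken within tertiles (3 equal parts) of the Pol II list. In the lowest tertile (Pol II fold enrichment up to 3.78), SPT5 was higher at SPT5-only peaks, 4.98 (4.87 to 5.09), than at peaks with SPT5 and TRIM28, 4.48 (4.39 to 4.59). In the middle tertile the order was the other way, 5.88 (5.63 to 6.13) against 6.33 (6.11 to 6.52), with intervals that just touched, and in the highest tertile it was 9.04 (8.60 to 9.48) against 9.98 (9.80 to 10.2). Each value is the height of a whole SPT5 peak. In the lowest tertile the nearest overlapping SPT5 summit lay a median of 176.5 bp from that of Pol II, against 59 bp with SPT5 and TRIM28. For peaks alone on their SPT5 peak, over all Pol II heights, the SPT5 medians were 4.69 and 5.75. That limit was not applied within tertiles. Peaks with O-GlcNAc had higher SPT5 medians than SPT5-only peaks in each tertile, from 5.85 in the lowest to 10.8 in the highest without TRIM28 and from 6.09 to 10.6 with it.

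Pol II and SPT5 height went together less closely at SPT5-only peaks. Across the 4600 peaks, Spearman's rho between the 2 fold enrichments was 0.25, against 0.58 to 0.62 in the 3 comparison classes. These are correlations across sites of 1 pair of libraries, which share base composition and mappability, and several Pol II peaks can take their value from the same SPT5 peak. Among the 2988 SPT5-only peaks with an SPT5 peak to themselves, rho was 0.52, against 0.63 to 0.73 in the comparison classes limited in the same way. SPT5-only peaks also spanned a narrower range of Pol II height, which bears on a rank correlation. Over the whole class its quartiles were 2.87 and 4.89. They were 3.22 and 6.79 with SPT5 and TRIM28, 4.05 and 7.34 with SPT5 and O-GlcNAc, and 5.20 and 8.95 with all 3. The effect of this range was not tested.

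The SPT5 peaks under SPT5-only Pol II peaks had the lowest median width of the 4 classes with SPT5, 852 bp against 887 to 1026 bp, but a wider upper quartile (1982 bp) than all Pol II peaks with SPT5 (1605 bp). Nearly all SPT5-only peaks (4530) met 1 SPT5 peak, 70 met more than one, and 3126 (68.0%) lay wholly inside SPT5, against 74.2% to 76.0% in the 3 comparison classes. They used 4088 distinct SPT5 peaks, which is 7.45% of the SPT5 list. That share was 1.88% in the lowest decile of the SPT5 list by fold enrichment and 15.3% in the highest. It was higher, at 18.2%, in the decile below the highest. An SPT5-only peak shared its SPT5 peak with another Pol II peak in 1612 cases (35.0%, 33.7% to 36.4%), against 26.8% of all Pol II peaks with SPT5 and 21.5% to 29.2% in the 3 comparison classes. This share depended on the lists. It fell to 9.04% with Pol II peaks within 500 bp merged and to 25.7% at a −log10 q of at least 5. It rose to 48.3% with SPT5 and TRIM28 reduced to as many peaks as O-GlcNAc had. The comparison classes were not counted under these choices. The division into kinds below rests on this sharing.

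Dividing the 4600 peaks by what else lay on the SPT5 peak, a division made after the data were seen, gave 3 kinds with different values. An SPT5 peak with several Pol II peaks must reach all of them and has a single summit. Greater SPT5 width and summit distance in the kinds that share an SPT5 peak thus partly follow from the division. The first kind was the 2988 peaks (65.0%) alone on their SPT5 peak. They had a median Pol II fold enrichment of 3.82, a median SPT5 fold enrichment of 4.69, a median SPT5 width of 559 bp, and Pol II and SPT5 summits a median of 34 bp apart. The second was 601 peaks (13.1%) that shared the SPT5 peak only with other SPT5-only peaks. Their SPT5 peaks were higher and wider, with medians of 6.85 and 2139 bp, and the median summit distance was 435 bp. The third was 1011 peaks that shared the SPT5 peak with a Pol II peak of another class. These had the lowest Pol II median of the 3 kinds, 3.01, and the highest SPT5 median, 8.95, on SPT5 peaks with a median width of 2761 bp, and their summits lay a median of 880 bp from that of SPT5.

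Peaks of the third kind were mostly lower than the highest Pol II peak of another class on the same SPT5 peak. This held in 841 of the 1011 cases (83.2%), with a median ratio of fold enrichments of 0.549 (0.519 to 0.573). The highest such peak was taken and the comparison classes were higher by median, so this order was partly set by the choice. Several SPT5-only peaks could be set against the same peak. The summits of the SPT5-only peak and that highest peak lay a median of 985 bp apart. That other peak carried SPT5 and TRIM28 in 571 cases (56.5%), and SPT5, TRIM28 and O-GlcNAc in 226 (22.4%). A Pol II peak of another class on an SPT5 peak carries an absent target by the rule, so an absent target elsewhere on that SPT5 peak largely follows from how this kind was made (1002 of 1011). It was found for 140 of the 2988 peaks alone on their SPT5 peak (4.69%) and for 34 of the 601 (5.66%). Over all SPT5-only peaks, 1176 (25.6%) therefore lay on an SPT5 peak that met an absent target at another point.

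Summit distances differed between these kinds, which the division itself partly sets. Pol II and SPT5 summits lay within 50 bp of each other at 2025 SPT5-only peaks (44.0%, 42.6% to 45.5%), against 60.8% of all Pol II peaks with SPT5, and more than 500 bp apart at 1173 (25.5%). The median distance was 71 bp (66 to 78 bp), against 31 bp with SPT5 and TRIM28, 27 bp with SPT5 and O-GlcNAc, and 22 bp with all 3. Among SPT5-only peaks alone on their SPT5 peak, 60.7% of summits were within 50 bp and 3.15% over 500 bp apart. The same restriction gave 70.0% to 77.7% within 50 bp in the comparison classes, so a smaller difference remained. Among the 1011 peaks that shared an SPT5 peak with another class, 7.32% of summits were within 50 bp. Distance was also shorter at greater Pol II height: the median was 176.5 bp in the lowest tertile of the Pol II list, 38 bp in the middle tertile and 20 bp in the highest, against 59, 30 and 17 bp with SPT5 and TRIM28.

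**Figure D3:**
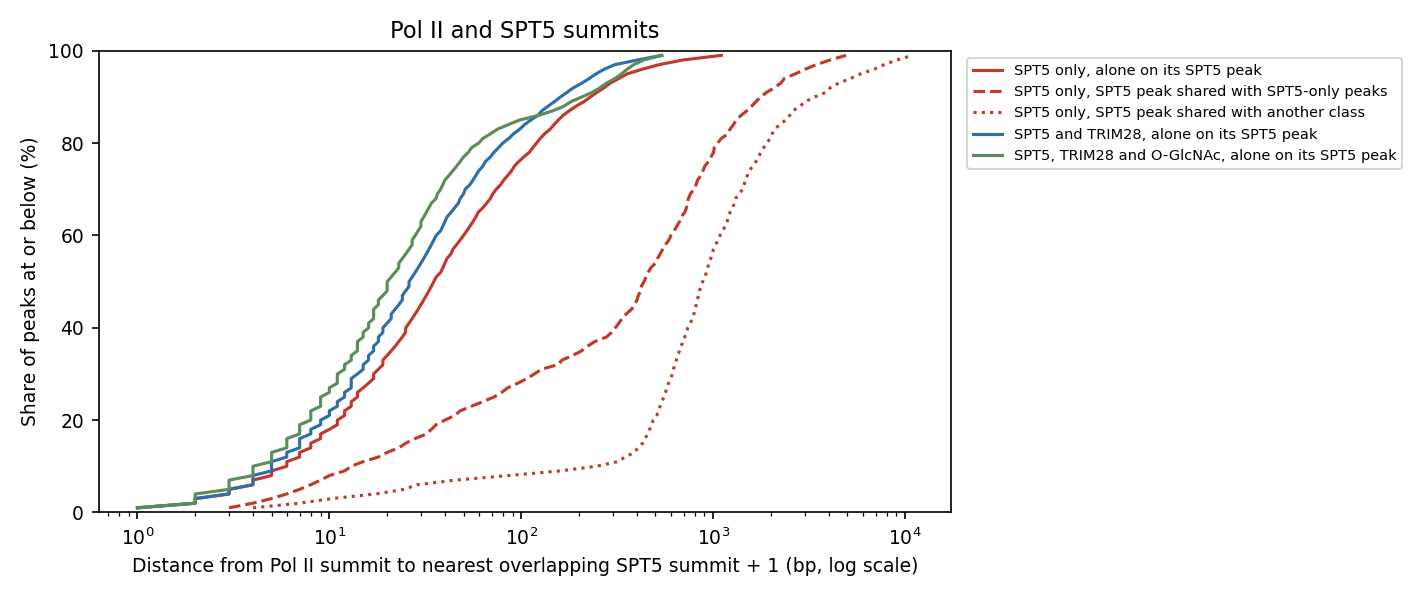
Share of Pol II peaks (%) whose summit lies within a given distance of the nearest overlapping SPT5 summit (bp + 1, log scale), for 3 kinds of SPT5-only peaks and for 2 other classes limited to peaks alone on their SPT5 peak. SPT5-only peaks alone on their SPT5 peak have a median of 34 bp, to the right of peaks with SPT5 and TRIM28 (25 bp) and with all 3 (19 bp), while those that share an SPT5 peak with another class have a median of 880 bp.

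The highest SPT5 values at SPT5-only peaks came from shared SPT5 peaks and from peaks alone on theirs. The highest, an SPT5 fold enrichment of 28.1, belonged to an SPT5 peak of 3042 bp over the Pol II peak at chr11:118965150-118965477. That Pol II peak had a fold enrichment of only 3.53, and 228 bp away was a Pol II peak of 15.9 with SPT5 and O-GlcNAc. The next 2, at chr17:4244551-4244759 (Pol II 2.66) and chr17:4244925-4245165 (2.07), lay on the same SPT5 peak of 28.0, and the first was 76 bp from a Pol II peak of 13.5 with SPT5 and TRIM28. At these 3 sites the SPT5 summit was 820 to 1096 bp from the Pol II summit. The other 2 sites were each alone on their SPT5 peak, of 1118 and 565 bp. They lay at chr14:106815747-106816869, with Pol II at 18.0 and SPT5 at 24.9, and at chr10:101869302-101869731, with 8.98 and 24.2, and had summits 6 and 5 bp apart.

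The absent targets were often close by. A TRIM28 peak lay within 1 kb of 1413 SPT5-only peaks (30.7%, 29.4% to 32.1%) and within 10 kb of 69.8%. An O-GlcNAc peak lay within 1 kb of 444 (9.65%) and an OGA peak within 1 kb of 130 (2.83%). At least 1 of the 3 was within 1 kb of 1550 SPT5-only peaks (33.7%) and within 10 kb of 73.2%. Pol II peaks with no other target had such peaks less often, with TRIM28 within 1 kb of 16.2% (13.6% to 19.1%) and within 10 kb of 50.9%, O-GlcNAc within 1 kb of 5.53% and OGA within 1 kb of 1.89%. The OGA intervals overlapped (2.39% to 3.35% against 1.11% to 3.21%), and those of the other 2 targets did not. Among the 2988 SPT5-only peaks alone on their SPT5 peak, the O-GlcNAc share within 1 kb was 5.19% (4.45% to 6.04%). That interval overlapped the one of peaks with no other target (4.06% to 7.50%). The share was 27.6% among the 1011 that shared with another class, which the division partly fixes, and 1.66% among the other 601. The list lengths set how often such a peak can lie nearby, so the 3 targets cannot be ranked by these shares.

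TRIM28 lay within 1 kb of 21.9% of the 2988 peaks alone on their SPT5 peak and 7.99% of the 601 that shared with SPT5-only peaks. For the 1011 peaks that shared with another class the share was 70.3%, which the division largely fixes, since most of the Pol II peaks they shared with carried TRIM28. By tertiles of Pol II height it lay within 1 kb of 36.5% of the lowest, 26.1% of the middle and 16.9% of the highest SPT5-only peaks. The high SPT5-only peaks thus lay farther from TRIM28 than the low ones.

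**Figure D4:**
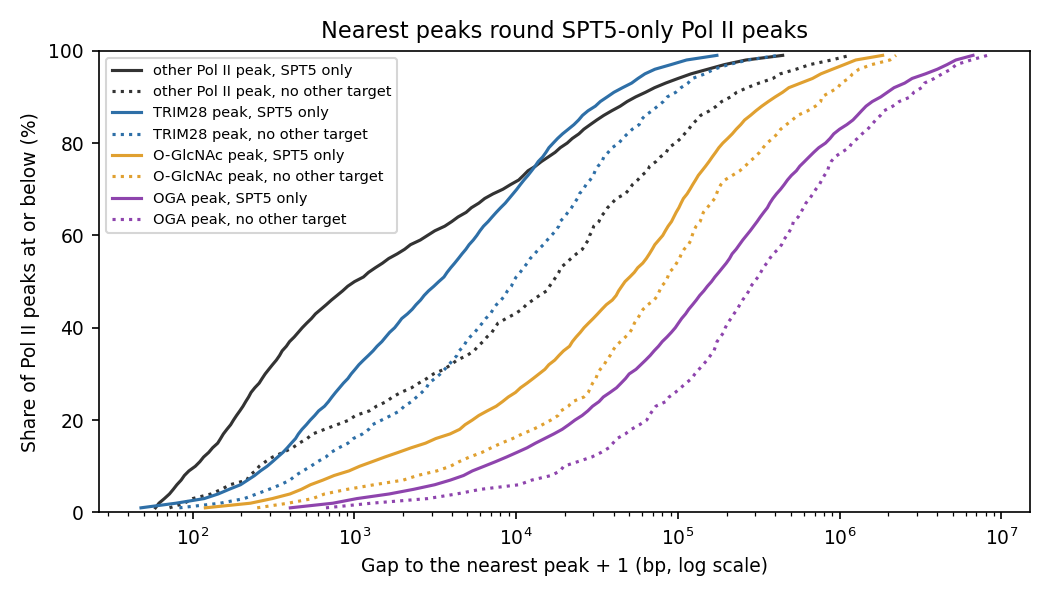
Share of Pol II peaks (%) with a peak of the named list within a given gap (bp + 1, log scale), for SPT5-only peaks (solid) and peaks with no other target (dotted). TRIM28 lies a median of 3325 bp from SPT5-only peaks and 9608 bp from peaks with no other target, and another Pol II peak a median of 1002 bp against 16849 bp.

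Few peaks lay close to the edges of the 1 bp rule. TRIM28 peaks lay within 50 bp of 56 SPT5-only peaks, whose median Pol II fold enrichment was 3.33. Another 53 Pol II peaks, with a median of 3.38, met the rest of the rule but overlapped TRIM28 by at most 50 bp. For O-GlcNAc the counts were 25 inside the rule (median 3.89) and 58 outside (3.58), and the SPT5 medians there were 8.13 and 6.01. For SPT5, 20 SPT5-only peaks had an overlap of at most 50 bp (2.95), and 21 peaks were left out with an SPT5 peak within 50 bp (2.92). For OGA there were 0 inside and 1 outside.

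SPT5-only peaks lay in groups along the chromosomes. The nearest other Pol II peak was itself SPT5 only for 1811 of the 4600 (39.4%, 38.0% to 40.8%), against 25.8% of all Pol II peaks, 26.8% with SPT5 and TRIM28, and 17.7% with SPT5, TRIM28 and O-GlcNAc. Another Pol II peak of any class lay within 1 kb of 2297 (49.9%), against 35.8% of all Pol II peaks, and was higher than the SPT5-only peak in 63.4% of these cases. Isolation was less common than among all Pol II peaks: 1305 SPT5-only peaks (28.4%) had no other Pol II peak within 10 kb, against 43.6% of all. These isolated peaks had a median Pol II fold enrichment of 4.44 (4.28 to 4.61), above the 3.54 of the whole class, with an SPT5 median of 4.93 and summits a median of 29 bp apart.

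The grouping was strongest in the largest clusters of Pol II peaks. When Pol II peaks with gaps under 10 kb were joined into clusters, SPT5-only peaks made up 15.5% of Pol II peaks without a neighbour, 25.0% in clusters of 2 to 4, 41.6% in clusters of 5 to 9 and 65.7% (62.1% to 69.2%) in the 42 clusters of 10 or more, where they were 441 of 671. Peaks with SPT5, TRIM28 and O-GlcNAc went the other way, from 33.1% to 1.94%.

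Unbroken runs of SPT5-only peaks, with gaps under 10 kb and no Pol II peak of another class between, reached lengths that no comparison class had in the deposited lists. There were 46 runs of 5 or more, holding 387 peaks (8.41%), and the longest had 52 and 48. The longest run was 6 peaks with SPT5 and TRIM28, 4 with SPT5 and O-GlcNAc, 4 with all 3 and 3 with no other target. These lengths depended on the lists. The longest SPT5-only run had 44 peaks at a −log10 q of at least 5, 29 with Pol II peaks within 500 bp merged and 26 with SPT5 at the Pol II list length, against 7 or fewer in the comparison classes there. With the SPT5 and TRIM28 lists reduced to the number of O-GlcNAc peaks it had 13, and the longest run was then 34 peaks with no other target. The SPT5-only peaks in runs of 5 or more numbered 100 to 186 under the first 2 and the last of these choices. Under the last, 393 peaks with no other target lay in such runs. With no TRIM28, OGA or O-GlcNAc peak allowed within 1 kb, the longest SPT5-only run stayed at 52. It was then 11 with SPT5 and TRIM28 and 6 with all 3. Peaks in runs of 5 or more numbered 329, 215 and 48 in these classes. By the 1 bp rule, the median Pol II fold enrichment was 3.28 in runs of 5 or more and 3.57 for other SPT5-only peaks. Their SPT5 peaks had median widths of 3111 and 794 bp. TRIM28 lay a median of 9180 bp from the peaks in these runs and 2800 bp from the others. A run holds no Pol II peak with TRIM28, so a longer gap partly follows from how runs were made. A Pol II peak of another class lay within 10 kb of an end of 33 of the 46 runs, and in 18 of the 33 it was higher than every peak of the run.

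The longest run covered 62.0 kb at chr12:25204023-25266066. Its 52 Pol II peaks had fold enrichments of 2.45 to 8.52 with a median of 4.16, and gaps between them had a median of 273 bp. Over this span 33 SPT5 peaks covered 82.7% of the sequence, with fold enrichments up to 14.5, and there were 0 peaks of TRIM28, OGA and O-GlcNAc. The second run, of 48 Pol II peaks over 82.8 kb at chr16:81915898-81998649, was lower, with Pol II at 2.03 to 4.83 and a median of 3.14. There 39 SPT5 peaks covered 86.5% of the span, and 3 TRIM28 peaks lay between the Pol II peaks. Another run of 10 peaks lay on the same chromosome at chr16:81818389-81825298.

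**Figure D5:**
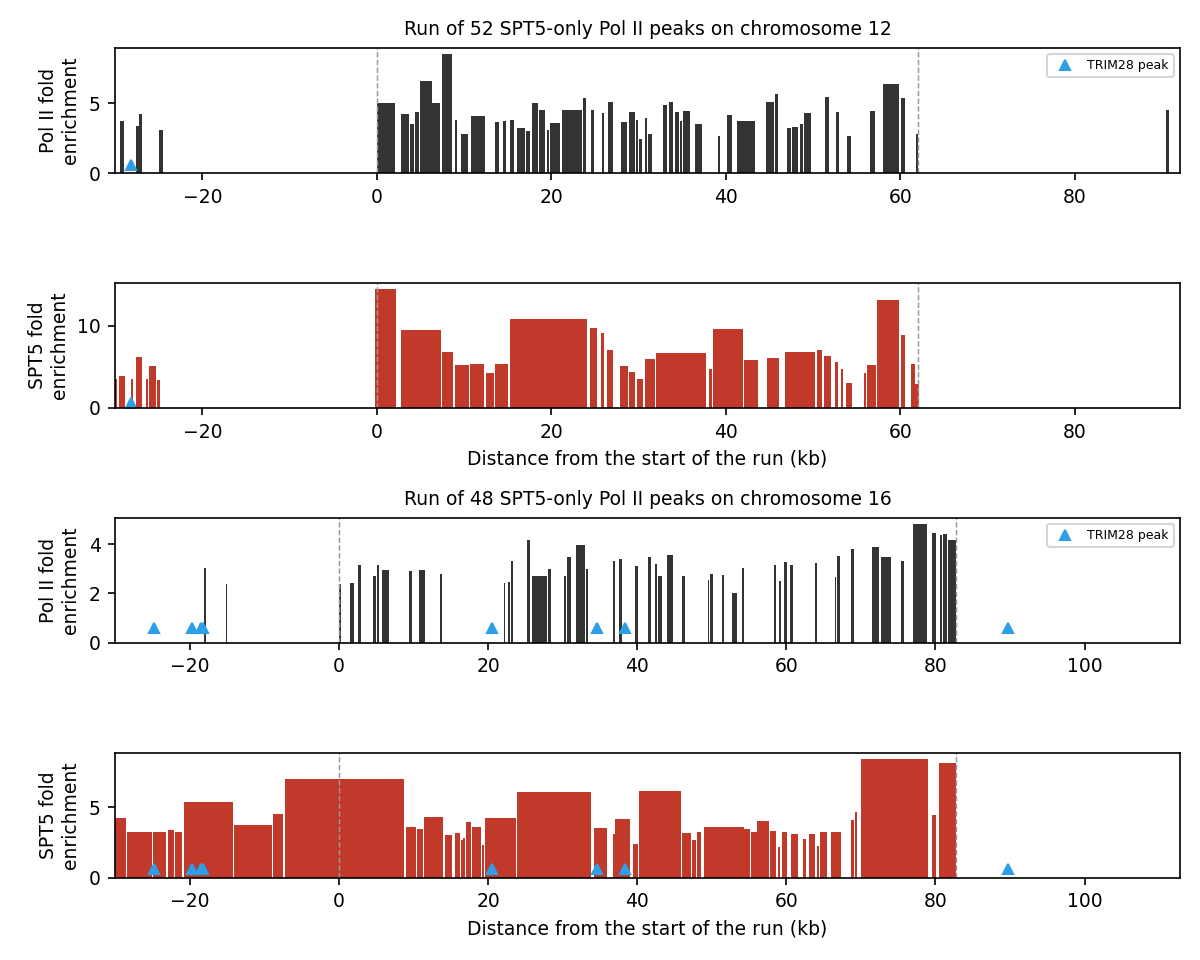
Pol II peaks (dark) and SPT5 peaks (red) over the runs of 52 and 48 SPT5-only Pol II peaks and 30 kb on each side, drawn to scale by distance from the start of the run, with fold enrichment as height and TRIM28 peaks as triangles. SPT5 covers 82.7% and 86.5% of the spans between the dashed lines, with 0 and 3 TRIM28 peaks inside them.

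The third run was 16 peaks over 19.2 kb at chr3:187437233-187456450, where Pol II fold enrichments were 2.30 to 4.35 and 7 SPT5 peaks covered 91.6% of the span with no peak of the 3 absent targets. A Pol II peak with SPT5 and TRIM28 began 1.35 kb after its end. The next 2 runs were neighbours on chromosome 17, 11 peaks at chr17:3828105-3847150 and 12 peaks at chr17:3849525-3859441. Only 1 Pol II peak stood between them, and it carried SPT5, TRIM28, OGA and O-GlcNAc with a Pol II fold enrichment of 4.91. These 2 runs were chosen for mention after their values were seen.

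The 3 widest SPT5-only peaks lay on chromosomes 14 and 22. The widest covered 13170 bp at chr14:106314764-106327933, which was also the widest of all 19336 Pol II peaks, on an SPT5 peak of 14207 bp. Its Pol II fold enrichment was 6.10 and its SPT5 fold enrichment 13.8, and an OGA peak lay 336 bp beyond its edge. The others were 5331 bp at chr22:23234504-23239834 (Pol II 5.46, SPT5 7.11) and 4360 bp at chr14:106347345-106351704 (Pol II 7.93, SPT5 6.78). After these were seen, the last 1.3 Mb of Pol II peaks on chromosome 14 was examined: 44 of 66 Pol II peaks there were SPT5 only (66.7%, 54.7% to 76.8%), against 148 of 631 on the rest of the chromosome (23.5%, 20.3% to 26.9%). The immunoglobulin heavy chain genes, which B cells rearrange and transcribe strongly, are the last genes of chromosome 14 in the RefSeq gene order of GRCh38.p14. That order is of another build, and no peak was assigned to a gene.

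The 3 SPT5-only peaks farthest from any TRIM28, OGA or O-GlcNAc peak were of middling height. The first and second lay on chromosome 21, at chr21:10990317-10990539 (1163 kb away) and chr21:10597298-10597505 (769.9 kb), and the other at chr5:83588519-83588774 (547.5 kb). Their Pol II fold enrichments were 4.77, 4.67 and 4.77, their SPT5 fold enrichments 4.58, 4.31 and 3.99, and their summits lay 36, 3 and 5 bp apart.

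By chromosome, the share of SPT5-only peaks ran from 16.2% on chromosome 19 (225 of 1393, 14.3% to 18.2%) to 33.5% on chromosome 8 (239 of 714, 30.1% to 37.0%), with a median of 24.0% over 22 chromosomes. Chromosomes 20 and 7, at 16.8% and 18.1%, did not differ from chromosome 19 beyond its interval, nor chromosome 13, at 30.3%, from chromosome 8. Because the rule leaves out peaks with TRIM28 or O-GlcNAc, the shares of those targets bear on it directly. TRIM28 lay at 44.4% of Pol II peaks on chromosome 8, the lowest of the 22, and at 59.1% on chromosome 19, below the median of 61.6%. O-GlcNAc lay at 34.7% on chromosome 8 and 56.8% on chromosome 19. Without clusters of 10 or more Pol II peaks, the shares ran from 15.2% to 33.5%. Whether the copy number of chromosomes in BJAB bears on these shares was not tested.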

How the data were processed

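Peak lists of 5 ChIP-seq libraries from BJAB cells were used, 1 library per target, and the 2 libraries with IgG were left out. The submitters' processing notes name Bowtie2 2.1.0, Trimmomatic 0.30, bcl2fastq 2.17 and the build hg19. The name and control of the peak caller were not given in the sources used here. Each deposited list gives a fold enrichment, a ratio made by the authors over a background that is not stated, deposited −log10 p and −log10 q values, and a summit position. The lowest −log10 q of the lists was 1.30 to 1.33. The deposited score column was not used. The other column used, the summit offset, is as deposited.

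Peaks on chromosomes 1 to 22 were compared by overlaps of at least 1 bp. Shares have 95% Wilson intervals and medians order-statistic intervals. Depth is unknown, since no read totals were used. The overlap code was tested on simulated data and against bedtools 2.31.1. Python 3.11.15, numpy 2.4.6, pandas 2.3.3, scipy 1.17.1 and matplotlib 3.10.9 were used. The members, comparison classes and measures were chosen with earlier results of these data known. Sites named were the 5 highest by Pol II and the 5 highest by SPT5 fold enrichment, the 3 widest, the 3 longest runs, the 3 farthest from the absent targets, and the chromosomes with the extreme shares. The planned distances to genes and sequences round summits were not run without a genome of that build. Other thresholds, overlaps and list lengths were tried, and their effect is given at the end.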

Additional observations from a re-analysis of the deposited data

Results flagged for a closer look

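Chromosome X stood outside the comparisons and held the same kind of peaks. There, 188 of 553 Pol II peaks (34.0%, 95% Wilson interval 30.2% to 38.0%) had SPT5 and none of TRIM28, OGA and O-GlcNAc, a share whose interval lay above the 23.8% of chromosomes 1 to 22. Chromosome 8 had a similar share, 33.5% (30.1% to 37.0%). The 188 peaks on chromosome X had a median Pol II fold enrichment of 4.42 and a median SPT5 fold enrichment of 6.21. The highest, at chrX:16789345-16790231, had a Pol II fold enrichment of 41.5, above the 27.2 of the highest peak on the other chromosomes, and an SPT5 fold enrichment of 11.9.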

How the results depend on the processing

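The count of SPT5-only Pol II peaks stayed within 1.5 times 4600 under 5 of 7 other choices. It fell to 3050 when no TRIM28, OGA or O-GlcNAc peak was allowed within 1 kb. Merging Pol II peaks within 500 bp gave 3065. The share of all Pol II peaks, 23.8%, stayed inside its interval only with chromosome X added (24.1%). It rose to 29.1% under a stricter −log10 q limit and to 27.7% under a 50% overlap rule. The 1 kb exclusion lowered it to 15.8% and merged Pol II peaks to 18.9%. Shortening SPT5 and TRIM28 to the O-GlcNAc list length gave 20.0%, and SPT5 to the Pol II list length 18.9%. Adding chromosome X gave a count of 4788 and moved none of the other main values beyond its interval. With a −log10 q of at least 5 in every list, the median Pol II fold enrichment was 4.25, that of SPT5 6.41, the summit distance 38 bp, the share with TRIM28 within 1 kb 19.6% and the share whose nearest Pol II peak was SPT5 only 42.1%. With an overlap of 50% of the shorter peak, the first 2 were 3.61 and 5.83 and the TRIM28 share 36.2%, which then counts overlaps below that limit. With the 1 kb exclusion the values were 3.74, 5.46, 52 bp, 0% by construction and 42.7%. With SPT5 and TRIM28 reduced to as many peaks as O-GlcNAc had, they were 5.46, 9.74, 39 bp, 5.15% and 42.5%. With SPT5 shortened to the length of the Pol II list they were 3.62, 6.72, 82 bp, 32.7% and 36.2%, and with merged Pol II peaks 3.82, 5.12, 40 bp, 17.1% and 30.3%. Limiting each class to Pol II peaks alone on their SPT5 peaks, a choice made after seeing the data, gave 3.82, 4.69, 34 bp and 21.9%.

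Of 72 differences between the median of SPT5-only peaks and that of a comparison class over these choices, 70 kept their direction. The 2 that reversed were in SPT5 fold enrichment with SPT5 and TRIM28 at the O-GlcNAc list length, where SPT5-only peaks were higher by 1.06 than peaks with SPT5 and TRIM28 and by 0.61 than those with all 3. The difference from peaks with SPT5 and O-GlcNAc was -2.71 before and -0.045 there, so none of the 3 differences in SPT5 height held under that choice. The cause was not tested. The peaks in runs of 5 or more fell from 387 to 186 with the stricter −log10 q, 185 with those shortened lists and 100 with merged peaks, and the longest run went from 52 to 44, 13 and 29. It was 26 with SPT5 at the Pol II list length. The share among the 100 highest Pol II peaks was 26.0% to 44.0%. No paired analysis was possible because each target had 1 library. The unknown depth of the TRIM28, OGA and O-GlcNAc libraries limits every absence.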
